A study of Homo sapiens with 54 samples.

Results

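The 5 genes described here, UGT2B10, UGT2B11, UGT2B15, UGT2B17 and UGT2B28, belong to the UGT2B family of UDP-glucuronosyltransferases. They were found by symbol and Entrez identifier among the 19225 genes and other transcripts of the expression table, and all 5 were present. Their levels and responses were followed through 54 RNA sequencing libraries from 3 human prostate cancer cell lines, 3 biological replicates in each of 18 groups. 22Rv1 was derived from a xenograft that relapsed after castration. C4-2 is a castration-resistant derivative of LNCaP, and LNCaP came from a lymph node metastasis. Each line was grown in medium with 10% serum and received 1 of 6 treatments for 12 h. These were 17-beta-estradiol with enzalutamide (E2+Enza), E2 alone at 100 nM, OSU-ERb-12 with enzalutamide (OSU+Enza), enzalutamide alone (Enza) at 1 µM, OSU-ERb-12 alone (OSU) at 100 nM, and ethanol as the vehicle. Enzalutamide is an antiandrogen used against prostate cancer, and the series was set up to study estrogen receptor beta in prostate cancer. The treatment label of the OSU+Enza libraries writes WT in place of OSU-ERb-12; their titles carry the same letters as those of the OSU libraries, and the treatment protocol names OSU-ERb-12 and E2 with their combinations. The genotype given is WT throughout, and serum was present in every group, vehicle included.

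UDP-glucuronosyltransferases sit in the membrane of the endoplasmic reticulum and join glucuronic acid, taken from UDP-glucuronate, to small lipophilic molecules, which can then leave the cell through export pumps. In the prostate UGT2B15 and UGT2B17 conjugate testosterone, dihydrotestosterone and their metabolites, a step that ends the action of androgens in the cell, and both genes are known to be lowered by androgens in LNCaP cells. UGT2B28 has been shown to act on androgens and estrogens, UGT2B10 is known mainly for conjugating amines such as nicotine, and the substrates of UGT2B11 are less settled, so the name of androgen-glucuronidating enzymes fits the members unequally.

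Reads in genes numbered 32819568 to 52417050 per library, and 1 read corresponded to 0.0204 to 0.0323 CPM (reads per 1000000). Levels are means ± SD of 3 libraries, and fold changes are log2 values ± SE on the log2(CPM + 0.5) scale, which understates changes of low genes. Tests were two-sided and made with limma over all genes with 3 or more libraries at 1 CPM or above, and a gene was called at a Benjamini-Hochberg adjusted p under 0.05. Low counts were even more often than chance allows: 66.7% of the 114184 values of 1 to 10 reads were even, against 50.1% of values above 100 and up to 200 reads, so the counting precision of low values is worse than their size implies. All 9 luminal prostate markers averaged at least 1 CPM in each line. The library C4-2 vehicle 1 carries the cell line tag of 22Rv1, but its mean correlation over genes was 0.848 with 22Rv1 libraries, 0.996 with the other C4-2 libraries and 0.962 with LNCaP libraries. An earlier analysis of these data had singled out 4 libraries as standing apart within their groups (C4-2 vehicle 1, C4-2 E2 3, 22Rv1 vehicle 3 and 22Rv1 OSU+Enza 2), and calls that changed without all 4 are given below; those between vehicle groups of the lines did not change.

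The members lie within 757.878 kb of chromosome 4 (GRCh38.p14). From the first to the last they are UGT2B17 at 68537173 to 68576322, UGT2B15 at 68646597 to 68670652, UGT2B10 at 68815994 to 68832023, UGT2B11 at 69199951 to 69224984 and UGT2B28 at 69280475 to 69295050. UGT2B10 and UGT2B28 are read from the plus strand and the other members from the minus strand. In the GENCODE 44 canonical transcripts UGT2B17 has 7 exons and each other member 6. The coding sequences fall into 2 sets by likeness. UGT2B15 and UGT2B17 were identical at 96.5% of 1593 aligned bases and shared a run of 199 bases. UGT2B11 and UGT2B28 were identical at 97.0% of 1590 bases, and UGT2B10 and UGT2B11 at 95% of 1587 bases. UGT2B15 and UGT2B11 were identical at 84.7%. The gapless stretch of 60 coding bases that varies least between the members is shown. UGT2B10, UGT2B11 and UGT2B28 are identical in it, so a short read from it cannot be placed among these genes. UGT2B17 differs there from UGT2B15 at 1 base, so a read that misses this base cannot be placed between them. The stretch starts at coding base 1104 in UGT2B10, at 1107 in UGT2B11 and UGT2B28, and at 1110 in UGT2B15 and UGT2B17. Capitals mark bases that differ from UGT2B15.
UGT2B10: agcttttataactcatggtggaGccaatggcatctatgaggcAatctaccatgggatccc
UGT2B11: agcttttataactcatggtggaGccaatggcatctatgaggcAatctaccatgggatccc
UGT2B15: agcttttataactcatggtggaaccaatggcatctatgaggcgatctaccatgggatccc
UGT2B17: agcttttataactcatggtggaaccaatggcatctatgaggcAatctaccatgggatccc
UGT2B28: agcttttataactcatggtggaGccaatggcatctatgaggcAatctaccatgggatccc
The 60 bases that vary most show the division into sets. UGT2B10 differed from UGT2B15 at 22 of these bases, UGT2B11 and UGT2B28 at 19 each, and UGT2B17 at 6.
UGT2B10: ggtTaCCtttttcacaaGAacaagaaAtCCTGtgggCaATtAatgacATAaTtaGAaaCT
UGT2B11: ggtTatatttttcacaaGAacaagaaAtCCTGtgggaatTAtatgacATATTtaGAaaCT
UGT2B15: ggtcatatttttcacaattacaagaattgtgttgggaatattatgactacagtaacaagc
UGT2B17: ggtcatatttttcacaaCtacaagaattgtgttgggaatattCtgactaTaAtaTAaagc
UGT2B28: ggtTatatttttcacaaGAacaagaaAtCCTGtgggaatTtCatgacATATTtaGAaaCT
Of the 75-base windows of each transcript, 17.9% in UGT2B15, 15.3% in UGT2B17, 8.81% in UGT2B11, 4.88% in UGT2B28 and 3.58% in UGT2B10 recur exactly in another member. At this length the windows of UGT2B15 and UGT2B17 recurred in each other and in no other member. The sources used here give neither the read length nor how reads that match several genes were counted, so a part of each level can belong to the near-identical partner. UGT2B15 is therefore uncertain against UGT2B17, and UGT2B28 and UGT2B10 against UGT2B11.

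The RefSeq table (GRCh38.p14) held promoters for 3 of the 5 members, each 300 bases from 250 before to 50 after the annotated start. With E2 below, UGT2B11 rises and UGT2B15 falls in LNCaP and 22Rv1, and UGT2B10 falls in 22Rv1 with a less stable call. The promoters are shown as a description, and whether their motifs bear on these responses was not tested. They lie at chr4:68815744-68816043 on the plus strand for UGT2B10, at chr4:69214699-69214998 on the minus strand for UGT2B11, inside that gene's annotated span, and at chr4:68670603-68670902 on the minus strand for UGT2B15. Capitals mark matches on either strand to the steroid receptor hexamer AGAACA, the forkhead motif TGTTTAC, the TATA box motif TATAAA, the CAAT box motif CCAAT, and GGTCA, which forms part of the estrogen response element. No matches overlap.
UGT2B10: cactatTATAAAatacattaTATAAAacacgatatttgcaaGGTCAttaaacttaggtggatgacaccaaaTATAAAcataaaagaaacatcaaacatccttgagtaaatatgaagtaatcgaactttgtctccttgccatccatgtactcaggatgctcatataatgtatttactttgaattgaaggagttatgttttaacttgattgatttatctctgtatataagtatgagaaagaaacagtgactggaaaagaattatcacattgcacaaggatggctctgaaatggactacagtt
UGT2B11: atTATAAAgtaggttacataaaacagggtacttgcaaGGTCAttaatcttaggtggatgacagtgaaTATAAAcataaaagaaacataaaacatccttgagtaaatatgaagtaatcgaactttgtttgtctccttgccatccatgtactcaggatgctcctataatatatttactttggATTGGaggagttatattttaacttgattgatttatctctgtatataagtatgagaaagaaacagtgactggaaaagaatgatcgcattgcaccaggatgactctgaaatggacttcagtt
UGT2B15: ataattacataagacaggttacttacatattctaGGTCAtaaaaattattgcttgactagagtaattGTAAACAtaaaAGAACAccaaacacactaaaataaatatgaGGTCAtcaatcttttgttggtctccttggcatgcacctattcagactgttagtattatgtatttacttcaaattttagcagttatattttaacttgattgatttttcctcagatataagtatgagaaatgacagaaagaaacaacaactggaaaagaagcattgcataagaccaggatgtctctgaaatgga
The UGT2B10 and UGT2B11 windows were identical at 92.6% of aligned bases, UGT2B11 and UGT2B15 at 78.0%, and UGT2B10 and UGT2B15 at 77.0%. AGAACA and TGTTTAC occurred once each in the UGT2B15 window and in neither other window. Of all 35116 promoters in the table, 14.8% held AGAACA, 3.42% held TGTTTAC, 11.5% held TATAAA, 34.6% held CCAAT and 37.4% held GGTCA. The forkhead variant TGTTTGC, found in 3.89% of promoters, was in none of the 3 windows. Nor was GTTAAT, an HNF1 half-site found in 6.88% of promoters, in any of them.

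The members differed widely between the lines before any treatment. Between vehicle libraries 5 of 5 were called in 22Rv1 against LNCaP, where 83.3% of 16026 genes were called, 5 of 5 in C4-2 against LNCaP (66.7% of genes), and 4 of 5 in 22Rv1 against C4-2 (84.7% of genes). Most genes were called between lines, so the counts of members called stand near this background, and the sizes and directions are given as a description. The filter took in all 54 libraries. UGT2B28 reached 1 CPM in no vehicle library and entered these tests through treated LNCaP groups. UGT2B10 reached 1 CPM only in 22Rv1, so it entered C4-2 against LNCaP through that line. In LNCaP the level per kb of transcript was highest for UGT2B17 (7.24 CPM per kb), followed by UGT2B15 (3.67), UGT2B11 (2.10), UGT2B28 (0.490) and UGT2B10 (0.266). In 22Rv1 it was highest for UGT2B15 (8.55 CPM per kb), followed by UGT2B10 (2.23), UGT2B17 (1.16), UGT2B11 (0.706) and UGT2B28 (0.0278).

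**Figure D1:**
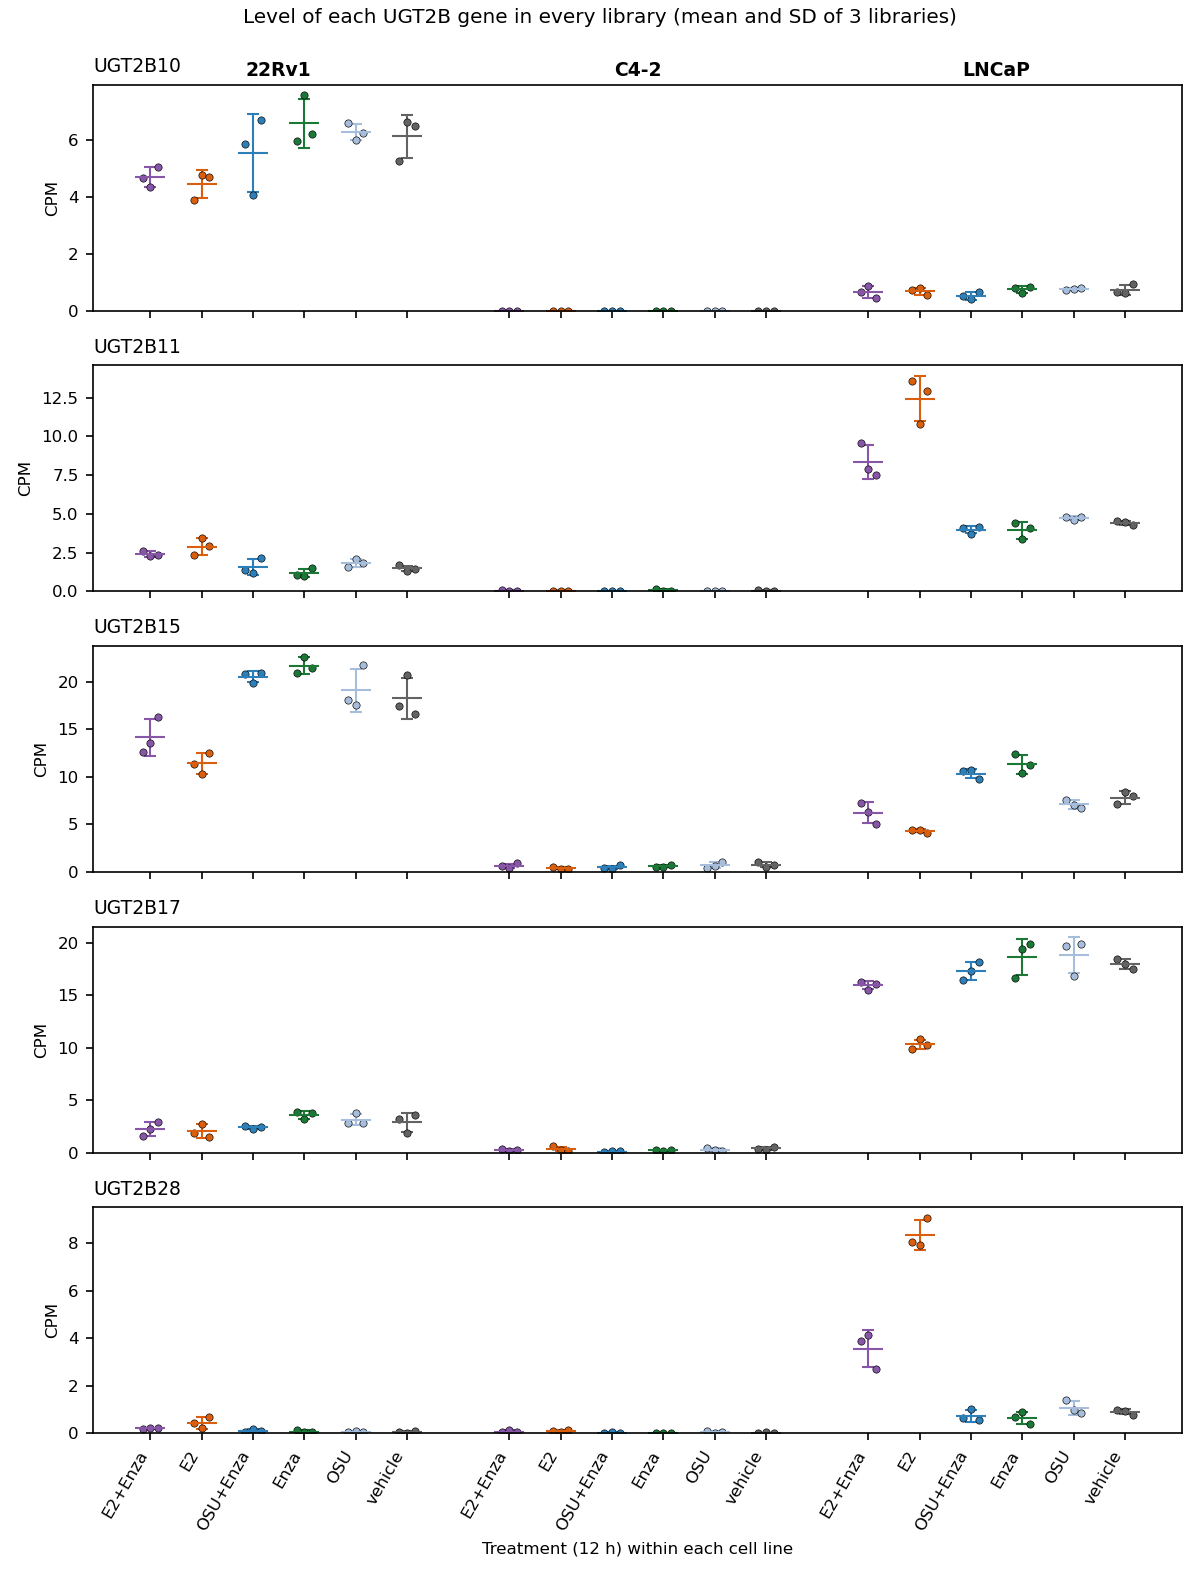
Level of each member in CPM (vertical axis, linear, one scale per gene) in every library, by treatment within 22Rv1, C4-2 and LNCaP; points are libraries and bars the mean and SD of 3. UGT2B28 and UGT2B11 stand highest in LNCaP with E2, UGT2B15 in 22Rv1 without E2, and C4-2 lies near 0 for all 5 genes.

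UGT2B17 was highest in LNCaP. It had 3.22, 1.84 and 3.59 CPM in 22Rv1 vehicle libraries, 0.385, 0.310 and 0.541 CPM in C4-2, and 18.4, 17.96 and 17.5 CPM in LNCaP. Every LNCaP library lay above every library of the other lines. The log2 fold change was -2.49 ± 0.17 for 22Rv1 against LNCaP (adjusted p = 4.81e-19) and -4.35 ± 0.17 for C4-2 against LNCaP (adjusted p = 4.73e-28).

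UGT2B15 ran the other way in 22Rv1. It had 17.4, 20.7 and 16.6 CPM in 22Rv1, 1.09, 0.517 and 0.773 CPM in C4-2, and 7.10, 8.43 and 7.96 CPM in LNCaP, with no overlap between lines. It was higher in 22Rv1 than in LNCaP by 1.17 ± 0.15 (adjusted p = 9.60e-10) and lower in C4-2 than in LNCaP by a log2 change of -2.71 ± 0.15 (adjusted p = 1.71e-21). The ratio of UGT2B17 to UGT2B15 reads was 0.185, 0.0889 and 0.217 in 22Rv1, 0.354, 0.600 and 0.700 in C4-2, and 2.59, 2.13 and 2.20 in LNCaP, with no overlap between LNCaP and the other lines.

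UGT2B10 was mainly a 22Rv1 transcript. It had 5.26, 6.65 and 6.51 CPM in 22Rv1 vehicle libraries, 0 reads in each of the 18 C4-2 libraries, and 0.663, 0.611 and 0.924 CPM in LNCaP. It was higher in 22Rv1 than in LNCaP by 2.43 ± 0.13 (adjusted p = 5.84e-23). Against a floor of 3 reads per library it was at least 88.9-fold higher in 22Rv1 than in C4-2, and at least 10.6-fold lower in C4-2 than in LNCaP.

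UGT2B11 and UGT2B28 were highest in LNCaP. UGT2B11 averaged 1.49 ± 0.182 CPM in 22Rv1, 0.0439 ± 0.0453 CPM in C4-2 and 4.42 ± 0.135 CPM in LNCaP. UGT2B28 had 2, 0 and 5 reads in 22Rv1, 0, 2 and 0 reads in C4-2, and 48, 37 and 36 reads in LNCaP. Against LNCaP, UGT2B11 was lower in 22Rv1 (-1.31 ± 0.13, adjusted p = 8.69e-13) and in C4-2 (-3.18 ± 0.13, adjusted p = 1.72e-26). UGT2B28 was also lower in both, with log2 fold changes of -1.35 ± 0.15 (adjusted p = 2.41e-11) and -1.45 ± 0.15 (adjusted p = 8.14e-12). Its difference between 22Rv1 and C4-2 was not called (0.10 ± 0.15, adjusted p = 0.543). The added 0.5 CPM shrinks these changes. As ratios of mean CPM, UGT2B28 was 17.6-fold lower than LNCaP in 22Rv1 and 66.0-fold lower in C4-2. These ratios rest on 7 and 2 reads in all, so their size is uncertain. UGT2B11 was 2.97-fold lower in 22Rv1 and 100.6-fold lower in C4-2, the latter from 6 reads in all.

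Neighbours of the members within 500 kb gave a measure of the chromosome region. YTHDC1, an RNA-binding reader of methylated adenosine, averaged 21.4 ± 1.81 CPM in 22Rv1, 20.1 ± 2.46 CPM in C4-2 and 25.5 ± 1.84 CPM in LNCaP vehicle libraries. UGT2B7, which conjugates steroids and opioids, averaged 1.51 ± 0.314 CPM in 22Rv1 vehicle libraries, was at 0 reads in 15 of 18 C4-2 libraries, and averaged 0.128 ± 0.112 CPM in LNCaP. UGT2B4, a bile acid conjugating enzyme, had 258 reads over the 18 22Rv1 libraries, 0 over those of C4-2 and 361 over those of LNCaP. TMPRSS11E, a serine protease gene, had 2 reads in all over the 22Rv1 libraries, 345 over those of C4-2 and 1964 over those of LNCaP. UGT2A1, UGT2A2 and UGT2A3 and most UGT1A genes were not analysed here; UGT1A1 and UGT1A3 were below 1 CPM in the vehicle libraries of each line.

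**Figure D2:**
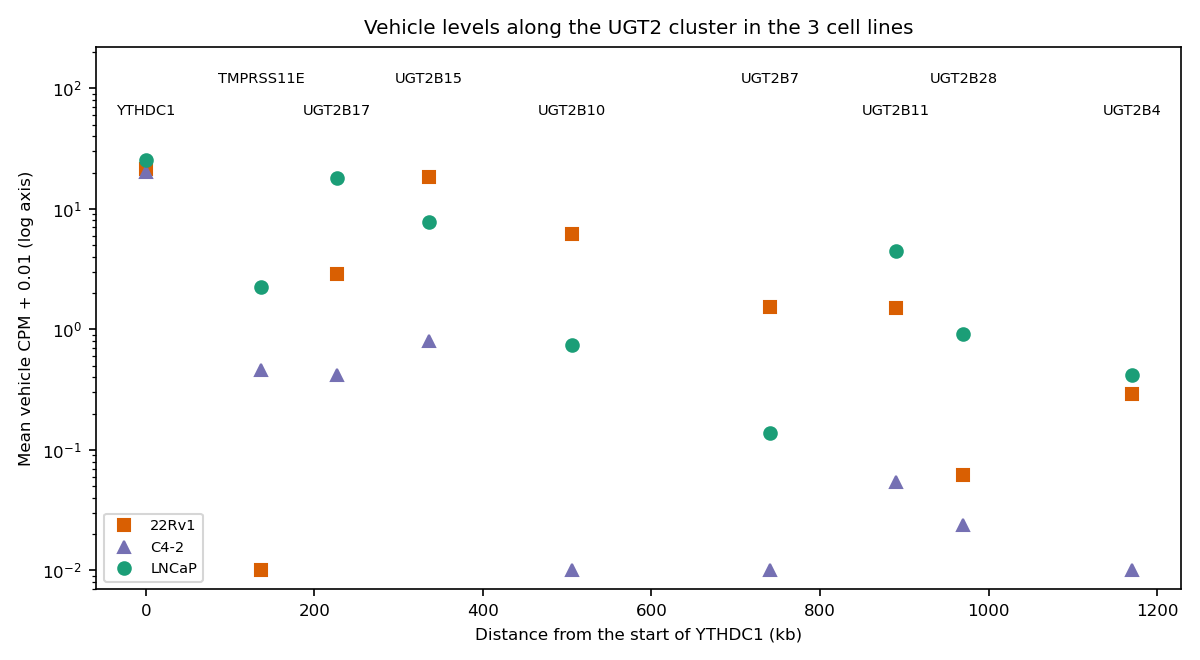
Mean vehicle level in CPM plus 0.01 (log axis) of the members and their measured neighbours, by distance in kb from the start of YTHDC1; squares are 22Rv1, triangles C4-2 and circles LNCaP. YTHDC1 lies between 20.1 and 25.5 CPM in the 3 lines, while UGT2B17 spans 0.412 to 17.97 CPM and C4-2 is the lowest or joint lowest at each UGT2B gene.

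The summed liver markers were highest in 22Rv1, as were UGT2B10 and UGT2B15, and UGT2B11, UGT2B17 and UGT2B28 were highest in LNCaP. With vehicle UGT2B15 averaged 0.792 CPM in C4-2 and 7.83 CPM in LNCaP. The summed level of the 3 hepatocyte markers measured (ALB, APOA1 and TTR, none of them at 0 in any line) ranged from 239 to 373 CPM in 22Rv1 libraries, from 1.49 to 3.21 CPM in C4-2 and from 3.19 to 5.24 CPM in LNCaP. Of these 3 markers, 2 averaged at least 1 CPM in 22Rv1, 1 in C4-2 and 2 in LNCaP. Their part in the levels of the members was not tested. In bulk libraries fewer cells of a type and less RNA per cell cannot be told apart.

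E2 split the family in LNCaP: UGT2B28 and UGT2B11 rose, and UGT2B15 and UGT2B17 fell. All 4 tested members were called, where 24.9% of 14251 genes were. UGT2B28 had 8.03, 7.93 and 9.05 CPM with E2, against 0.994, 0.942 and 0.792 CPM with vehicle. The E2 libraries lay far above the vehicle libraries, at 9.17 times their mean. The log2 fold change was 2.65 ± 0.18 (adjusted p = 2.11e-12), the 7th in size of all genes tested. UGT2B28 reached 1 CPM in 8 LNCaP libraries, which were the 3 with E2, the 3 with E2+Enza, 1 with OSU and 1 with OSU+Enza, so it entered the test through the groups in which it was high.

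UGT2B11 had 13.6, 10.8 and 12.9 CPM with E2, against 4.51, 4.48 and 4.27 CPM with vehicle, with no overlap. It rose by 1.39 ± 0.11 (adjusted p = 3.54e-11). UGT2B15 had 4.44, 4.47 and 4.14 CPM with E2, against 7.10, 8.43 and 7.96 CPM with vehicle. All E2 libraries were below all vehicle libraries, and the log2 fold change was -0.78 ± 0.10 (adjusted p = 8.55e-07). UGT2B17 had 9.90, 10.8 and 10.3 CPM with E2, against 18.4, 17.96 and 17.5 CPM with vehicle, a log2 fold change of -0.77 ± 0.07 (adjusted p = 1.29e-09). UGT2B10 stayed under 1 CPM in every LNCaP library and was not tested, with 32, 37 and 24 reads with E2 against 32, 24 and 42 with vehicle.

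The order of the members in LNCaP changed with E2. Per kb of transcript UGT2B11 (5.91 CPM per kb), UGT2B28 (4.49) and UGT2B17 (4.16) led with E2, against UGT2B17 (7.24), UGT2B15 (3.67) and UGT2B11 (2.10) with vehicle. The summed level of the 5 genes was 36.1 ± 1.18 CPM with E2 and 31.9 ± 0.498 CPM with vehicle, and was not tested. Reads exchanged between near-identical members would leave this sum as it is but would alter the shares of single genes. UGT2B17 made up 28.6% of the sum with E2 and 56.4% with vehicle, and UGT2B15 12.1% and 24.6%. UGT2B11 made up 34.4% with E2 and 13.9% with vehicle, and UGT2B28 23.1% and 2.85%. With E2 the ratio of UGT2B17 to UGT2B15 reads was 2.23, 2.42 and 2.48, which overlapped with 2.59, 2.13 and 2.20 with vehicle.

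**Figure D3:**
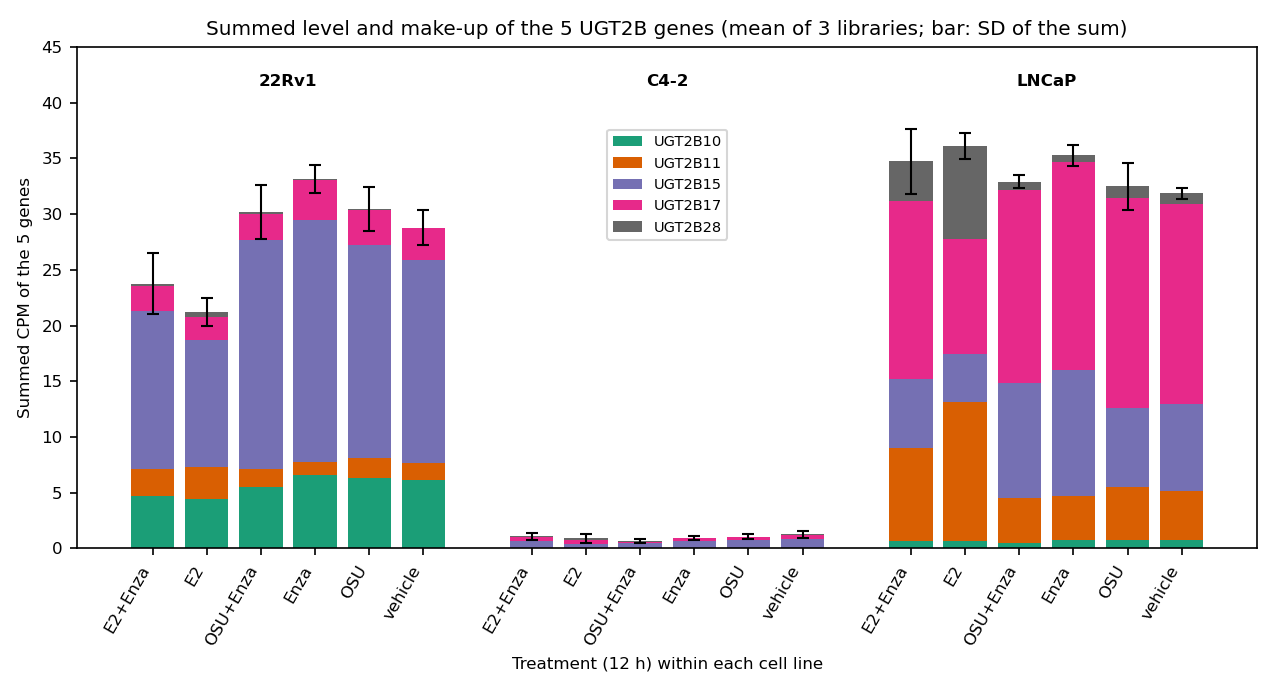
Summed CPM of the 5 members (stacked means of 3 libraries, bar for the SD of the sum) by treatment within 22Rv1, C4-2 and LNCaP. In LNCaP the stack is 36.1 CPM with E2 and 31.9 CPM with vehicle, and its UGT2B11 and UGT2B28 layers are wider with E2; in 22Rv1 it is lower with E2 than with vehicle (21.2 and 28.8 CPM), and in C4-2 it stays near 1 CPM.

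With enzalutamide present E2 moved the same genes in LNCaP. In E2+Enza against Enza 4 of 4 tested members were called, where 23.1% of genes were. This count includes UGT2B28, which entered the LNCaP tests through the groups in which it was high. UGT2B28 had 3.88, 4.13 and 2.70 CPM with E2+Enza, against 0.676, 0.893 and 0.400 CPM with Enza, and rose by 1.82 ± 0.18 (adjusted p = 4.49e-09). UGT2B11 had 9.56, 7.92 and 7.52 CPM with E2+Enza, against 4.39, 3.35 and 4.06 CPM with Enza, and rose by 0.99 ± 0.11 (adjusted p = 2.64e-08). Neither gene's libraries overlapped between the groups. UGT2B15 fell to 7.29, 6.28 and 5.09 CPM with E2+Enza, against 12.4, 10.4 and 11.2 CPM with Enza (-0.83 ± 0.10, adjusted p = 3.17e-07). UGT2B17 had 16.3, 15.5 and 16.1 CPM with E2+Enza, against 16.7, 19.4 and 19.8 CPM with Enza. Its log2 fold change of -0.21 ± 0.07 passed the test (adjusted p = 0.0283), but not when Enza 2, Enza 3, E2+Enza 2 or E2+Enza 3 was left out (-0.18, -0.17, -0.20 and -0.22, adjusted p = 0.108, 0.149, 0.0962 and 0.0588), nor in 1 fit of all 54 libraries (adjusted p = 0.448).

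Enzalutamide alone raised UGT2B15 in LNCaP, and of the 4 tested members only that one was called, where 20.4% of genes were. UGT2B15 had 12.4, 10.4 and 11.2 CPM with Enza, against 7.10, 8.43 and 7.96 CPM with vehicle. The groups did not overlap, and the log2 fold change was 0.51 ± 0.10 (adjusted p = 6.11e-04). The values of UGT2B17 (0.05 ± 0.07), UGT2B11 (-0.16 ± 0.11) and UGT2B28 (-0.31 ± 0.18) were not called, with adjusted p of 0.695, 0.325 and 0.240.

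Added to E2, enzalutamide moved all 4 tested members in LNCaP toward their vehicle level (13.5% of genes were called in E2+Enza against E2). The 4 include UGT2B28, tested through the groups in which it was high. UGT2B28 fell by 1.13 ± 0.18 on the log2 scale (adjusted p = 3.00e-05) and UGT2B11 fell by 0.55 ± 0.11 (adjusted p = 4.61e-04). UGT2B17 rose by 0.60 ± 0.07 (adjusted p = 3.07e-07), with E2+Enza libraries of 15.5 to 16.3 CPM and E2 libraries of 9.90 to 10.8 CPM. UGT2B15 rose by 0.46 ± 0.10 (adjusted p = 2.06e-03).

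Whether the E2 effect differed with and without enzalutamide was tested as an interaction, called for 2 of 4 members and 9.05% of genes in LNCaP. Here too UGT2B28 entered the test through the groups in which it was high. For UGT2B17 the difference was 0.56 ± 0.10 (adjusted p = 4.12e-04), since its E2 effect was smaller with enzalutamide. The call held without any 1 library (0.48 to 0.60) but not in 1 fit of all 54 libraries (adjusted p = 0.183). For UGT2B28 the difference was -0.83 ± 0.25 (adjusted p = 0.0363). That call was lost when vehicle 2 or 3, E2 1, 2 or 3, Enza 1 or 2, or E2+Enza 3 was left out (-0.86 to -0.66, adjusted p = 0.0544 to 0.127), and with a pseudocount of 0.1 CPM, no filter or voom weights. UGT2B11 (-0.39 ± 0.15, adjusted p = 0.104) was called only without Enza 2 (-0.49, adjusted p = 0.0360) or without E2+Enza 1 (-0.49, adjusted p = 0.0485). UGT2B15 was not called (-0.05 ± 0.14, adjusted p = 0.885).

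**Figure D4:**
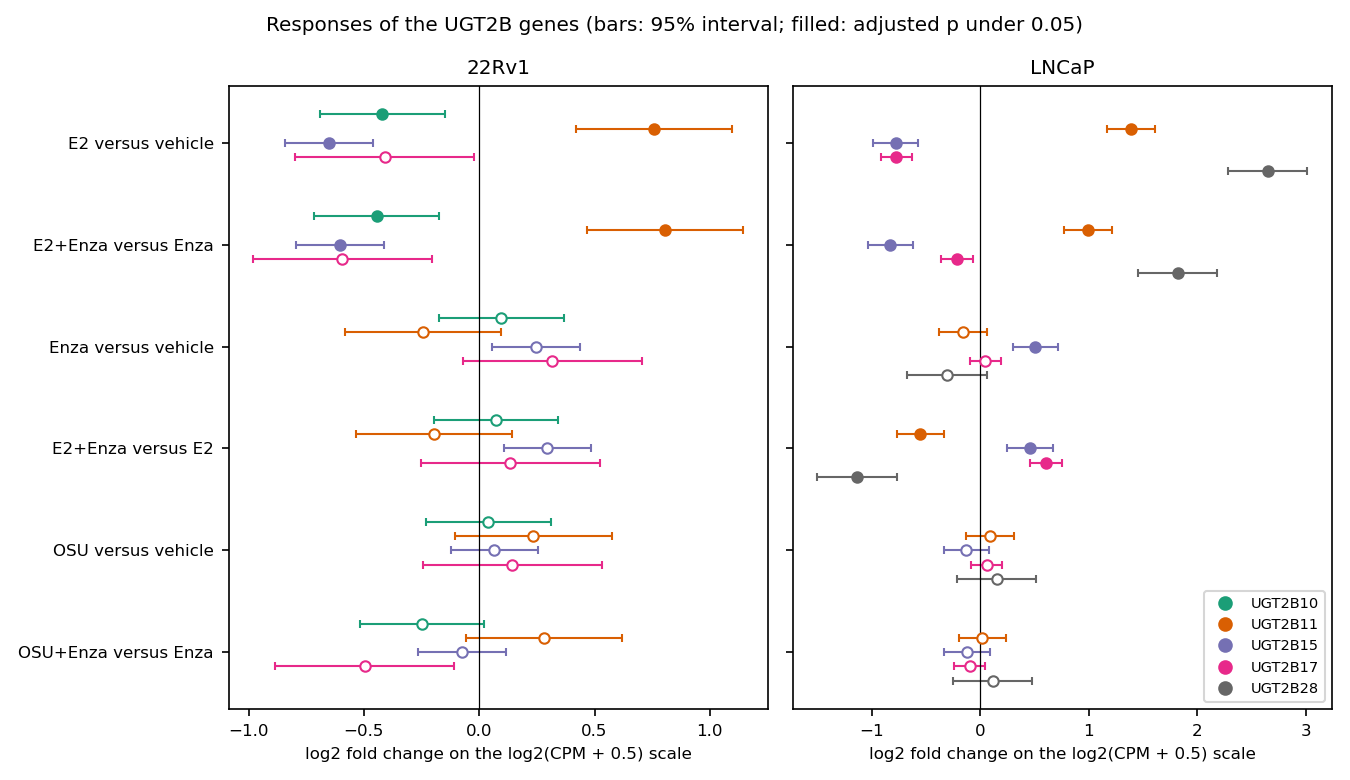
Log2 fold change of each tested member on the log2(CPM + 0.5) scale with its 95% interval, for 6 comparisons in 22Rv1 (left) and LNCaP (right); filled points passed an adjusted p of 0.05. UGT2B11 and UGT2B15 lie on opposite sides of 0 in both rows that add E2, in both lines, and the OSU rows hold no filled point.

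In 22Rv1 E2 lowered UGT2B15 and UGT2B10 and raised UGT2B11. These were 3 of 4 tested members, where 27.7% of 14866 genes were called. UGT2B15 had 11.4, 10.3 and 12.5 CPM with E2, against 17.4, 20.7 and 16.6 CPM with vehicle, with no overlap (-0.65 ± 0.09, adjusted p = 6.55e-06). UGT2B11 had 2.31, 3.42 and 2.90 CPM with E2, against 1.68, 1.32 and 1.46 CPM with vehicle, again with no overlap (0.76 ± 0.17, adjusted p = 1.43e-03). UGT2B10 had 3.88, 4.78 and 4.70 CPM with E2, against 5.26, 6.65 and 6.51 CPM with vehicle. Its log2 fold change of -0.42 ± 0.13 passed the test (adjusted p = 0.0195) but not without vehicle 2, vehicle 3 or E2 1 (-0.36, -0.38 and -0.33, adjusted p = 0.0833, 0.0642 and 0.107).

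UGT2B17 in 22Rv1 had 1.87, 2.77 and 1.46 CPM with E2, against 3.22, 1.84 and 3.59 CPM with vehicle. The groups overlapped, and the log2 fold change of -0.41 ± 0.19 was not called (adjusted p = 0.105). It was called without vehicle 2 (-0.66, adjusted p = 0.0164) or without E2 2 (-0.61, adjusted p = 0.0346). UGT2B28 had 17, 10 and 29 reads with E2, against 2, 0 and 5 reads with vehicle. Every E2 library was above every vehicle library, but all were under 1 CPM and the gene was not tested; without the filter on low genes its log2 fold change was 0.75 ± 0.14 (adjusted p = 2.77e-03).

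E2 had like effects in 22Rv1 with enzalutamide, where 3 of 4 tested members and 7.94% of genes were called in E2+Enza against Enza. UGT2B15 had 12.6, 13.5 and 16.3 CPM with E2+Enza, against 20.9, 22.6 and 21.4 CPM with Enza (-0.60 ± 0.09, adjusted p = 2.83e-05). UGT2B11 had 2.63, 2.28 and 2.38 CPM with E2+Enza, against 1.07, 1.01 and 1.49 CPM with Enza (0.80 ± 0.17, adjusted p = 1.30e-03). UGT2B10 had 4.66, 4.37 and 5.07 CPM with E2+Enza, against 5.97, 7.59 and 6.23 CPM with Enza. Its log2 fold change was -0.44 ± 0.13 (adjusted p = 0.0329), and the call was lost without Enza 2, E2+Enza 1 or E2+Enza 2 (-0.35, -0.44 and -0.40, adjusted p = 0.154, 0.0914 and 0.124). UGT2B17 narrowly missed the threshold (-0.59 ± 0.19, adjusted p = 0.0509), and was called without E2+Enza 3 (-0.76, adjusted p = 0.0195) and without the 4 libraries that stand apart (-0.59, adjusted p = 0.0392).

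No member was called for enzalutamide in 22Rv1, although UGT2B15 stood higher with it, without overlap, both alone and added to E2. With limma 0 of 4 tested members were called in Enza against vehicle, 1 at an unadjusted p under 0.05 and 0 with voom weights, where 0.659% of genes were called. UGT2B15 had 20.9, 22.6 and 21.4 CPM with Enza, against 17.4, 20.7 and 16.6 CPM with vehicle. The groups did not overlap, yet the difference was not called (0.25 ± 0.09, adjusted p = 0.222, 95% interval 0.06 to 0.44). In E2+Enza against E2 0 of 4 members were called with limma, 1 at an unadjusted p under 0.05 and 0 with voom weights (1.2% of genes called). That 1 member was UGT2B15, with 12.6, 13.5 and 16.3 CPM with E2+Enza, against 11.4, 10.3 and 12.5 CPM with E2. The limma log2 fold change was 0.30 ± 0.09 (adjusted p = 0.169, 95% interval 0.11 to 0.49). In the interaction 0 of 4 were called with limma, 0 at an unadjusted p under 0.05 and 0 with voom weights (0.424% of genes called).

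OSU-ERb-12, given at the same dose as E2, changed no member detectably in LNCaP or 22Rv1. In LNCaP limma called 0 of 4 members against vehicle, 0 at an unadjusted p under 0.05 and 0 with voom weights, where 0.014% of genes were called. The log2 fold changes were 0.09 ± 0.11 for UGT2B11, -0.13 ± 0.10 for UGT2B15, 0.06 ± 0.07 for UGT2B17 and 0.15 ± 0.18 for UGT2B28. Their 95% intervals ran from -0.34 for UGT2B15 to 0.52 for UGT2B28. UGT2B28 had 1.42, 0.971 and 0.849 CPM with OSU, against 0.994, 0.942 and 0.792 CPM with vehicle, and the groups overlapped. In 22Rv1 limma called 0 of 4 members against vehicle, 0 at an unadjusted p under 0.05 and 0 with voom weights, where 0% of genes were called.

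With enzalutamide present OSU-ERb-12 gave the same count. In OSU+Enza against Enza limma called 0 of 4 members in LNCaP (0 at an unadjusted p under 0.05, 0 with voom weights, 0.0982% of genes called) and 0 of 4 in 22Rv1 (1 at an unadjusted p under 0.05, 0 with voom weights, 0.101% of genes called). That 1 member was UGT2B17 in 22Rv1, with 2.53, 2.24 and 2.46 CPM with OSU+Enza, against 3.86, 3.19 and 3.78 CPM with Enza. The groups did not overlap and the log2 fold change was -0.50 ± 0.19 (adjusted p = 0.427, 95% interval -0.89 to -0.11).

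In C4-2 none of the 5 members reached 1 CPM in 3 libraries, so none was tested within the line. UGT2B15 had 13 to 48 reads per library, UGT2B17 4 to 26, and UGT2B11 and UGT2B28 0 to 6 each. UGT2B28 had 5, 2 and 6 reads with E2, against 0, 2 and 0 reads with vehicle, and 3, 6 and 2 reads with E2+Enza, against 0, 0 and 0 with Enza. UGT2B15 had 23, 15 and 15 reads with E2, against 48, 25 and 30 with vehicle. Without the filter limma called 0 of 5 members in each of the 7 comparisons within C4-2, and the lowest adjusted p was 0.171. An unadjusted p under 0.05 was reached 3 times, by UGT2B15 (-0.49 ± 0.21, adjusted p = 0.247) and UGT2B28 (0.22 ± 0.08, adjusted p = 0.171) for E2, and by UGT2B28 for E2+Enza against Enza (0.22 ± 0.08, adjusted p = 0.188). In 1 fit of all 54 libraries UGT2B15 was called lower with E2. The shares of all tested genes called in C4-2 were 5.82% for E2, 8.44% for Enza, 0% for OSU, 7.38% for E2+Enza against Enza, 3.46% for E2+Enza against E2, 0% for OSU+Enza against Enza and 1.5% for the interaction.

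The E2 responses of UGT2B11 and UGT2B28 differed between lines in the direct test on the log2(CPM + 0.5) scale, but with voom weights 0 of 5 members were called in either comparison. In 22Rv1 minus LNCaP 2 of 5 members and 11.2% of genes were called, UGT2B11 (-0.63 ± 0.19, adjusted p = 0.0182) and UGT2B28 (-1.90 ± 0.21, adjusted p = 1.97e-09). In C4-2 minus LNCaP 2 of 5 members and 8.41% of genes were called, UGT2B11 (-1.42 ± 0.19, adjusted p = 2.14e-07) and UGT2B28 (-2.43 ± 0.21, adjusted p = 5.35e-12). Both comparisons share the LNCaP libraries. UGT2B28 reached 1 CPM in no library of 22Rv1 or C4-2, so it entered both through the LNCaP groups in which it was high. These differences lie on a scale to which 0.5 CPM was added, and in 22Rv1 and C4-2 UGT2B28 was below that amount on average in every group. In C4-2 UGT2B11 was far below it too, with 4 reads in all with E2 and 6 with vehicle. With voom weights the UGT2B11 difference was -0.52 in 22Rv1 minus LNCaP (adjusted p = 0.231) and -1.76 in C4-2 minus LNCaP (adjusted p = 0.261). As a ratio of mean CPM, E2 over vehicle was 8.57 for UGT2B28 in 22Rv1, from 56 reads against 7 in all, and 9.17 in LNCaP. With voom weights the difference for UGT2B28 was 0.05 in 22Rv1 minus LNCaP (adjusted p = 0.982) and -0.80 in C4-2 minus LNCaP (adjusted p = 0.625); neither was called. With a pseudocount of 0.1 CPM the 22Rv1 minus LNCaP difference was -1.27 (adjusted p = 0.0525). The UGT2B11 difference in 22Rv1 minus LNCaP was not called without LNCaP E2 1, 22Rv1 vehicle 1 or 22Rv1 E2 1 (-0.57, -0.56 and -0.51, adjusted p = 0.0611, 0.0694 and 0.0907).

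The E2 responses of UGT2B15 were not called as different from LNCaP in 22Rv1 (0.13 ± 0.21, 95% interval -0.30 to 0.55) or in C4-2 (0.29 ± 0.21, 95% interval -0.14 to 0.71). In C4-2 UGT2B15 averaged 0.792 CPM with vehicle and 0.409 with E2, and UGT2B17 0.412 and 0.358. These lie near or below the added 0.5 CPM, which shrinks C4-2 responses, also to enzalutamide. As a ratio of mean CPM, E2 over vehicle was 0.517 in C4-2 and 0.555 in LNCaP for UGT2B15. For UGT2B17 it was 0.868 and 0.574. For UGT2B17 the C4-2 minus LNCaP difference of 0.66 ± 0.23 was not called (adjusted p = 0.0672), but was without C4-2 vehicle 3, C4-2 E2 2 or C4-2 E2 3 (0.76, 0.74 and 0.78, adjusted p = 0.0459, 0.0441 and 0.0496). For the enzalutamide response, 1 of 5 members and 4.99% of genes were called in C4-2 minus LNCaP, UGT2B15 (-0.68 ± 0.21, adjusted p = 0.0465). That call was lost without LNCaP vehicle 1 or 2, LNCaP Enza 1 or 3, C4-2 vehicle 1 or 3, or C4-2 Enza 1 or 2 (-0.74 to -0.53, adjusted p = 0.0572 to 0.186), and without the 4 libraries that stand apart (-0.53, adjusted p = 0.182). In 22Rv1 minus LNCaP limma called 0 of 5 members, 0 at an unadjusted p under 0.05 and 0 with voom weights, where 4.49% of genes were called.

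Over the 18 groups all groups of a line stood together in the order of levels for UGT2B10, UGT2B11, UGT2B15 and UGT2B17; for UGT2B28 the LNCaP groups came first and those of 22Rv1 and C4-2 were mixed. UGT2B10 was highest in 22Rv1 Enza (6.60 ± 0.868 CPM), UGT2B15 likewise (21.7 ± 0.888 CPM), UGT2B17 in LNCaP OSU (18.8 ± 1.71 CPM), and UGT2B11 and UGT2B28 in LNCaP E2 (12.4 ± 1.46 and 8.34 ± 0.620 CPM). Most neighbours in that order overlapped in their libraries, with 15 of 17 neighbouring pairs for UGT2B10, 14 for UGT2B28, 12 each for UGT2B15 and UGT2B17, and 11 for UGT2B11. The 3 highest UGT2B17 groups, LNCaP OSU, Enza and vehicle, were among those that overlapped. The LNCaP E2, LNCaP E2+Enza and LNCaP OSU groups, in that order, did not overlap with one another for UGT2B11 or for UGT2B28.

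The genes whose log2 levels ran most like each member were sought over the 18 libraries of the line in which the member was highest. These libraries share their treatments, and each pair of values shares a library and its depth, so the correlations are a description. UGT2B28 in LNCaP was most like FKBP5, a receptor co-chaperone (Pearson r = 0.972), GNMT, a glycine methyltransferase (0.972), and CDC14B, a phosphatase (0.971). UGT2B11 in LNCaP was most like PTPN21 (0.976), FKBP5 (0.975) and C1orf21 (0.974). UGT2B17 in LNCaP was most like DIS3L (0.960), MAN2A2 (0.940) and PHLDA1 (0.928). In 22Rv1 UGT2B15 was most like NOVA1 (0.949), PCDH17 (0.948) and A1CF (0.946), and UGT2B10 like CACNA2D1 (0.957), ROBO1 (0.899) and GABRB2 (0.896).

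The wider lists of the pathway, counted by direction, are read against E2 raising 13.3% and lowering 11.6% of all genes in LNCaP and raising 17.1% and lowering 10.6% in 22Rv1. Of the genes that supply UDP-glucuronate, E2 raised 3 and lowered 1 of 11 tested in LNCaP (median log2 fold change 0.04) and raised 4 and lowered 0 of 12 in 22Rv1 (median 0.10), against a median over all genes of -0.01 in LNCaP and 0.03 in 22Rv1. PGM2, a phosphopentomutase, rose by 0.57 ± 0.03 in LNCaP (adjusted p = 1.08e-13) and by 0.44 ± 0.06 in 22Rv1 (adjusted p = 5.97e-06). UGDH, which makes UDP-glucuronate, rose by 0.25 ± 0.05 in 22Rv1 (adjusted p = 5.65e-04). Of the glucuronide hydrolysis and export genes, E2 raised 2 and lowered 1 of 5 in LNCaP and raised 0 and lowered 4 of 7 in 22Rv1, with medians of 0.05 and -0.28. The export pumps ABCC4 (0.98 ± 0.04, adjusted p = 2.49e-17) and ABCC1 (0.78 ± 0.07, adjusted p = 1.71e-09) rose in LNCaP, whereas ABCC1 fell by 0.28 ± 0.09 in 22Rv1 (adjusted p = 0.0173). Enzalutamide, which raised 9.79% and lowered 10.6% of all genes in LNCaP, raised 0 and lowered 2 of the 5 (median -0.27, against 0.00 over all genes). These were ABCC4 (-0.57 ± 0.04, adjusted p = 6.56e-12) and ABCC1 (-0.46 ± 0.07, adjusted p = 3.13e-05).

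Of the enzymes that form or inactivate androgens, E2 raised 3 and lowered 0 of 7 tested in LNCaP and raised 4 and lowered 3 of 11 in 22Rv1, with medians of 0.23 and 0.10. HSD17B4, which oxidizes steroids at the site of the hydroxyl group that glucuronidation uses, rose by 0.23 ± 0.03 in LNCaP (adjusted p = 9.64e-07) and by 0.23 ± 0.04 in 22Rv1 (adjusted p = 4.95e-04). SRD5A1, a steroid reductase that makes dihydrotestosterone, rose by 0.25 ± 0.05 in LNCaP (adjusted p = 5.41e-04), and AKR1C3, which forms testosterone, fell by 0.54 ± 0.10 in 22Rv1 (adjusted p = 1.75e-04). Of the steroid sulfation genes, E2 raised 2 and lowered 0 of 5 in each of these lines, with medians of -0.05 in LNCaP and 0.18 in 22Rv1. Of the known regulators of UGT2B genes, E2 raised 0 and lowered 3 of 15 in LNCaP and raised 2 and lowered 5 of 16 in 22Rv1, with medians of -0.04 in both. The 4 androgen-induced genes KLK3, KLK2, TMPRSS2 and FKBP5 all rose with E2 in LNCaP (median 1.16) and in 22Rv1 (median 1.08), and all 4 fell with Enza in LNCaP (median -1.41).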

How the data were processed

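Total RNA from 54 libraries was sequenced after stranded library preparation, per the labels' protocols. Trimmomatic, FastQC, edgeR and featureCounts are listed, with hg38, in the submitters' processing notes, and Rsubread in the design text of the series; the sources used here give no versions. The deposited table has the unit score. Its values are what log2 of CPM (after adding 0.5 reads) becomes when each library is rescaled to a column sum of 1000000, as the numbers themselves show. Whole reads were recovered for 100% of values (tolerance 0.01), and CPM was computed from these reads and the effective library sizes that the deposited values imply, which were such that total reads were 0.895 to 1.105 times them. Of 19225 row identifiers, 18917 had an entry in RefSeq GRCh38.p14; no column of sample values was left unused (0 columns). Lines and replicate numbers were taken from the sample titles, and treatments from the treatment labels.

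The tests were limma 3.58.1 (R 4.3.3) on log2(CPM + 0.5), its variance prior following mean expression, after dropping genes that fewer than 3 libraries of the fit held at 1 CPM. Comparisons inside a line came from its own 18 libraries, comparisons of lines from all 54. Because the deposited unit is a score, no count model was fitted, and limma with voom weights on recovered reads was an alternative instead. The other alternatives were pseudocounts of 0.1 and 1 CPM, no filter, scaling to total reads, TMM factors computed in R, a replicate block, 1 fit of all libraries, and leaving out each library or the 4 that stand apart (C4-2 vehicle 1, C4-2 E2 3, 22Rv1 vehicle 3 and 22Rv1 OSU+Enza 2). The test was checked on simulated data in which low genes were left unchanged, so the check does not cover changes of low members. Coding sequences were aligned with MAFFT 7.526. Replicates are biological per the labels, and no 2 libraries held identical values. The text names the 5 members in every comparison, up to 4 genes per list and comparison with the smallest p, and the 3 genes most like a member. The members and lists were chosen with earlier results of these data known.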

Additional observations from a re-analysis of the deposited data

Results flagged for a closer look

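The direct test of a difference in response between lines singled out 5 results on the log2(CPM + 0.5) scale, and with voom weights none of them was called (0 of 5 members in each comparison). For UGT2B11 the E2 response was smaller in 22Rv1 than in LNCaP by a log2 difference of -0.63 (adjusted p = 0.0182) and smaller in C4-2 than in LNCaP by -1.42 (adjusted p = 2.14e-07), both with limma over all genes. For UGT2B28 the differences were -1.90 in 22Rv1 minus LNCaP (adjusted p = 1.97e-09) and -2.43 in C4-2 minus LNCaP (adjusted p = 5.35e-12). UGT2B28 entered these tests only through the LNCaP groups in which it was high. For UGT2B15 the Enza response in C4-2 minus that in LNCaP was -0.68 (adjusted p = 0.0465). With voom weights the UGT2B28 difference in 22Rv1 minus LNCaP was 0.05, and the ratio of mean CPM with E2 to that with vehicle was 8.57 in 22Rv1 and 9.17 in LNCaP. The gene levels behind these differences are unequal: UGT2B28 had 10 to 29 reads per library with E2 in 22Rv1, 2 to 6 in C4-2 and 358 to 394 in LNCaP, and UGT2B11 in C4-2 had 4 reads in all with E2 and 6 with vehicle.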

How the results depend on the processing

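With scaling to total reads the median of all genes moved to -0.10 in C4-2 against LNCaP and to 0.22 in 22Rv1 against C4-2 vehicle libraries; the line differences of the members kept their direction and calls. The replicate numbers did not pair the libraries: in 0 of 15 pairs of groups in each line were all same-number correlations of deviations over 0.1 (lowest -0.31 in 22Rv1, -0.51 in C4-2 and -0.14 in LNCaP). A replicate block changed no call, with 4 members called for E2 in LNCaP and 3 in 22Rv1, as without it. The count of members called for the interaction in LNCaP, 2, became 1 with a pseudocount of 0.1 CPM, no filter, voom weights or 1 fit of all 54 libraries, and was 1 to 3 when a library was left out. The E2 response count in 22Rv1 minus LNCaP, 2, became 0 with a pseudocount of 0.1 CPM or voom weights (1 to 2 without 1 library), and that in C4-2 minus LNCaP became 0 with voom weights. The Enza response count in C4-2 minus LNCaP, 1, became 0 with a pseudocount of 0.1 CPM, no filter, total reads, voom weights or without the libraries that stand apart (0 to 1 without 1 library). The count for E2 in C4-2, 0, became 1 (UGT2B15) in 1 fit of all 54 libraries. Without the filter UGT2B10 was no longer called in 22Rv1 for E2 (adjusted p = 0.0597) or E2+Enza against Enza (adjusted p = 0.111); UGT2B17 in 22Rv1 was called for E2+Enza against Enza with a pseudocount of 1 CPM (adjusted p = 0.0464), total reads (0.0359) or 1 fit of all libraries (0.0125).

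Signs turned only for differences that were not called, apart from UGT2B28 in the E2 response of 22Rv1 minus LNCaP (0.049 with voom weights). With voom weights UGT2B15 was at -0.064 for the E2 response in C4-2 minus LNCaP and UGT2B28 at -0.26 for the Enza response in C4-2 minus LNCaP. The UGT2B10 interaction in 22Rv1 was 0.017 with total reads and 2.5e-04 with TMM. Without 1 library, the interaction in 22Rv1 ranged from -0.11 to 0.076 for UGT2B10, -0.077 to 0.17 for UGT2B11, -0.055 to 0.12 for UGT2B15 and -0.35 to 0.063 for UGT2B17, and in LNCaP from -0.16 to 0.079 for UGT2B15. OSU+Enza against Enza in LNCaP ranged from -0.080 to 0.093 for UGT2B11 and -0.056 to 0.26 for UGT2B28. In 22Rv1, OSU ranged from -0.060 to 0.10 for UGT2B10, -0.027 to 0.16 for UGT2B15 and -0.10 to 0.30 for UGT2B17; E2+Enza against E2 from -0.014 to 0.12 for UGT2B10 and -0.033 to 0.33 for UGT2B17; and Enza from -0.0032 to 0.16 for UGT2B10. The UGT2B10 Enza response in 22Rv1 minus LNCaP ranged from -0.043 to 0.14. The causes were not tested. UGT2B28 in 22Rv1 and all members in C4-2 rest on few reads.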
